A study of Mus musculus with 12 samples.

Results

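The 37 chromaffin and neuroendocrine genes described here encode what an adrenal chromaffin cell needs to make, store, and release catecholamines and peptides. They were chosen as a list of gene symbols, with earlier results of these data known. All 37 were found among the 49585 genes of the count files, of which 49326 had a symbol. Adrenal cortex from 12 mice was sequenced for its RNA, 1 library per mouse. The cortex is cut away from the medulla by hand under magnification in the study's methods for adrenal cells. In 4 mice a low-fat diet (LFD, a normal diet in the labels) was fed for 20 weeks. In 4 mice a high-fat diet (HFD) was fed for the same 20 weeks, and in 4 mice the HFD was supplemented with icosapent ethyl, a purified ethyl ester of the omega-3 fatty acid EPA, in the last 10 of the 20 weeks. The labels give all 12 mice the genotype Fads2-/-, whereas the study's methods describe wild-type male C57BL/6J mice that were 6 weeks old when the feeding began, and Fads2 RNA was counted in each of the 12 mice at between 451.6 and 2181 CPM. CPM are counts per 1000000 reads of a library size scaled by the trimmed mean of M values (TMM). The mice are named by the numbers in the labels, which are 2, 5, 6, and 7 for the LFD and 1 to 4 for each of the other groups, and values per mouse are given in that order.

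The adrenal gland has an outer cortex, which makes steroid hormones, and an inner medulla of chromaffin cells, which derive from the neural crest. Chromaffin cells turn tyrosine into dopamine, noradrenaline, and adrenaline, load them into dense-core granules together with granins and neuropeptides, and release them when acetylcholine from preganglionic nerve fibers acts on nicotinic receptors. The medulla lies directly beneath the inner cortex.

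Between 34785979 and 67295963 reads were counted on genes per mouse, and between 20812 and 21634 genes had a count. The label of the tissue was checked against cell markers. The summed level of 12 adrenocortical markers lay between 44800 and 75600 CPM in LFD, 59100 and 106000 CPM in HFD, and 61800 and 98000 CPM in icosapent ethyl-treated mice. The defining chromaffin genes Th, Dbh, Pnmt, and Chga were also counted in each of the 12 mice, so that the libraries held chromaffin RNA beside the cortical RNA of the label.

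The 37 genes together took between 0.347% and 2.56% of the counts of a mouse. Their summed level was 21938, 14293, 25261, and 7465.5 CPM in the LFD mice. It was 11455, 3738.4, 9733.5, and 3865.3 CPM in the HFD mice, and 10536, 12252, 12403, and 6443 CPM in the icosapent ethyl-treated mice. The highest mouse (LFD replicate 6) held 6.76 times the level of the lowest (HFD replicate 2). Without the TMM scaling the lowest was HFD replicate 4, and LFD replicate 6 held 7.38 times its level. LFD replicates 2, 5, and 6 stood above every mouse of the other groups, whereas LFD replicate 7 lay below HFD replicates 1 and 3, so the LFD and HFD groups overlapped. The group means were 17240 ± 7970 CPM in LFD, 7198 ± 3980 CPM in HFD, and 10410 ± 2780 CPM in icosapent ethyl-treated mice (SD, n = 4 each). In such bulk samples, fewer chromaffin cells in a dissected piece and less RNA per chromaffin cell cannot be told apart.

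**Figure D1:**
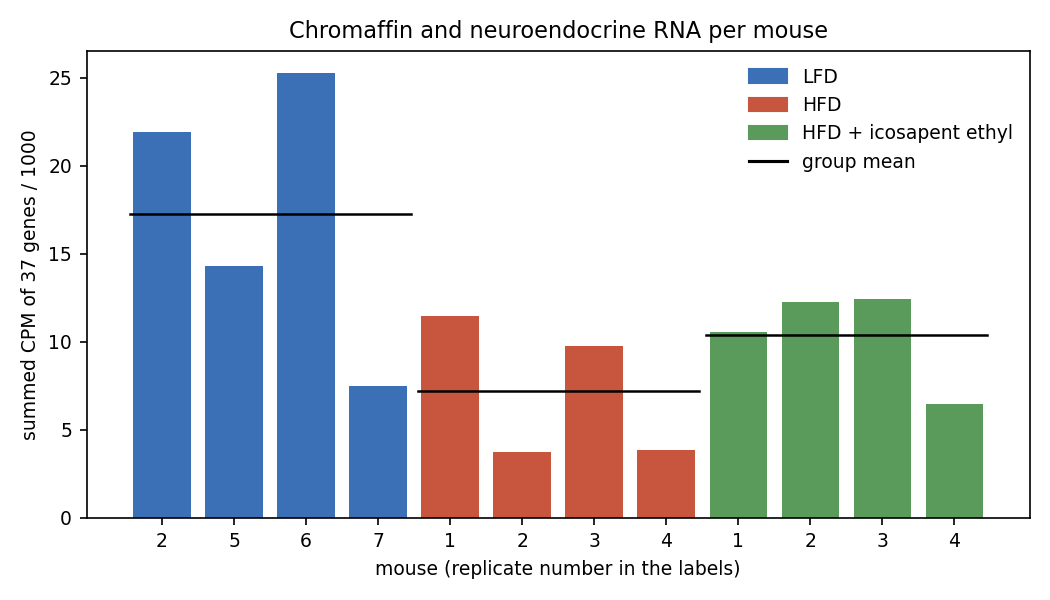
Summed level of the 37 chromaffin and neuroendocrine genes (CPM divided by 1000) in each of the 12 mice. Bars are single mice, coloured by group and numbered as in the labels, and black lines are group means of 4 mice, which are 17240 CPM in LFD, 7198 CPM in HFD, and 10410 CPM in icosapent ethyl-treated mice.

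The same mice were high or low in nearly every gene. LFD replicate 7 was the lowest LFD mouse in 36 of the 37 genes, HFD replicate 1 the highest HFD mouse in 33, and icosapent ethyl replicate 4 the lowest of its group in 33. Across the 12 mice the median coefficient of variation (CV) of the 37 genes was 55.5%, against 20.6% over the 16262 genes with enough counts in the 12 mice. A CV above 50% was found in 30 of the 37 genes and in 10.6% of all genes. When each gene was expressed per 1000 CPM of the other 36 genes in the same mouse, the median CV was 20.1%, and it was lower than that of the CPM in 34 genes. The genes that kept closest to the others were Chgb, Scg3, Slc18a1, Dbh, Scg5, and Scg2, with CVs between 6.05% and 7.44%. Both measures come from the same libraries and scaling and were given no test.

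**Figure D2:**
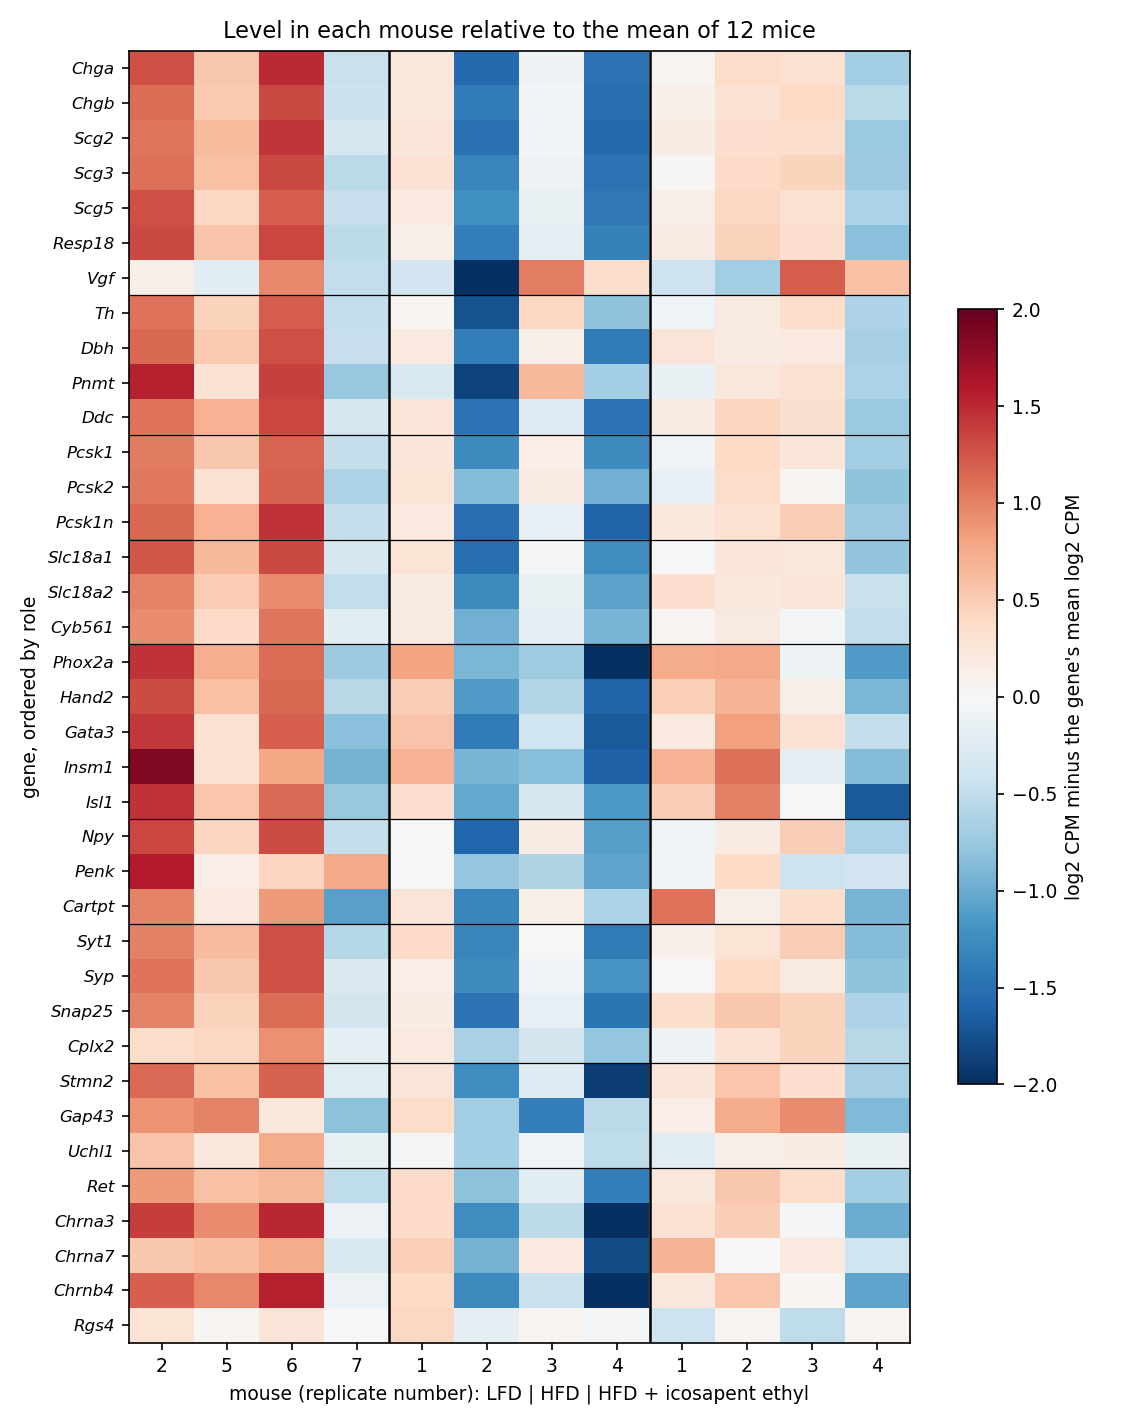
Level of each of the 37 genes (rows, ordered by role, black lines between roles) in each of the 12 mice (columns, black lines between groups), as log2 CPM minus the gene's own mean log2 CPM over the 12 mice. Red is above and blue below that mean. Whole columns share a colour, with LFD replicates 2 and 6 high and HFD replicates 2 and 4 low, whereas Vgf and Rgs4 stand out from the columns.

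HFD versus LFD mice addressed what the obesogenic diet changed. Each of the 37 genes had a lower fitted level on the HFD. The median of their log2 fold changes was -1.22, a 2.34-fold lower level, beside a median of -0.01 over all 15909 genes tested and 51.8% of these genes with a lower level. None of the 37 passed an adjusted p below 0.05 in the quasi-likelihood test of edgeR (Benjamini-Hochberg adjusted over all genes, here called the edgeR adjusted p), where 0.471% of all genes were called lower, and the lowest adjusted p was 0.0722, for Penk. At an unadjusted p below 0.05, 25 of the 37 genes were lower, against 12.5% of all genes. The same mice were high or low in nearly every gene, so the genes in this count, and in those below, are not independent of each other. That count fell to 8 without LFD replicate 6 (8.21% of all genes in that fit), 10 without LFD replicate 2 (9.13%), 10 without HFD replicate 2 (8.65%), and 11 without HFD replicate 4 (8.43%), and it was 12 with no filter on low counts (8.34%). Without LFD replicate 7 it was 34. In that edgeR fit, 3990 of all 16145 genes had an unadjusted p below 0.05, counted in both directions together. The Wald test of DESeq2 called 18 of the 37 lower, among them Chga, Chgb, Scg2, Ddc, Npy, and Penk, with adjusted p between 0.00189 and 0.0491, against 6.33% of all genes by the same tool. Only Penk had no overlap between the 4 LFD and the 4 HFD mice (5.81% of all genes were lower without overlap). Without HFD replicate 1, edgeR called 4 of the genes (Cplx2, Chrna3, Chrnb4, and Penk, with 2.39% of all genes called lower in that fit) and the median log2 fold change was -1.56. Without any other single mouse it called 0, with medians between -1.47 and -1.01.

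Icosapent ethyl-treated versus HFD mice addressed what the drug changed on the same diet. Of the 37 genes, 36 had a higher fitted level under the drug, and the median of their log2 fold changes was 0.57 (1.48-fold), beside 0.004 over the 15913 genes tested. No gene of the 37 passed the threshold by edgeR or by DESeq2, and 0 had an unadjusted p below 0.05 by edgeR (0% of all genes were called higher, and 0.672% were higher at an unadjusted p below 0.05). The lowest unadjusted p, from edgeR's quasi-likelihood test, was 0.0855, for Snap25 (log2 fold change 0.80, SE 0.413, adjusted p = 1.0). The groups overlapped in each of the 37 genes (0.484% of all genes were higher without overlap). With the replicate number as a block, 15 of the 37 were higher at an unadjusted p below 0.05, against 2.56% of all genes in that fit, and again 0 passed the threshold, with a median log2 fold change of 0.61. Without HFD replicate 1, 22 of the 37 were higher at an unadjusted p below 0.05 (3.48% of all genes) and the median was 0.89. Without icosapent ethyl replicate 4, 5 of the 37 were (1.54% of all genes). Without HFD replicate 4 the median was 0.34.

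Icosapent ethyl-treated versus LFD mice compared the same drug group with the lean controls. Of the 37 genes, 36 had a lower fitted level under the drug, and the median of their log2 fold changes was -0.67, a 1.59-fold lower level, beside -0.0037 over the 15935 genes tested. None passed the threshold by edgeR (0% of all genes were called lower) or by DESeq2 (1.39% of all genes). The lowest adjusted p by edgeR's quasi-likelihood test was 0.271, for Penk. At an unadjusted p below 0.05, 6 of the genes were lower (Penk, Chrna3, Cyb561, Chrnb4, Slc18a1, and Rgs4), against 6.67% of all genes. The groups overlapped in each of the 37 (3.69% of all genes were lower without overlap). This comparison shares its LFD mice with HFD versus LFD and its treated mice with icosapent ethyl versus HFD, so the 3 comparisons are not independent of each other. The count of 6 rose to 28 without LFD replicate 7 (8.49% of all genes in that fit). It fell to 1 without LFD replicate 2 (5.7%), 1 without LFD replicate 6 (4.82%), 3 without icosapent ethyl replicate 1 (4.86%), 3 without replicate 3 (5.82%), and 2 without replicate 4 (5.22%) of the same group.

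**Figure D3:**
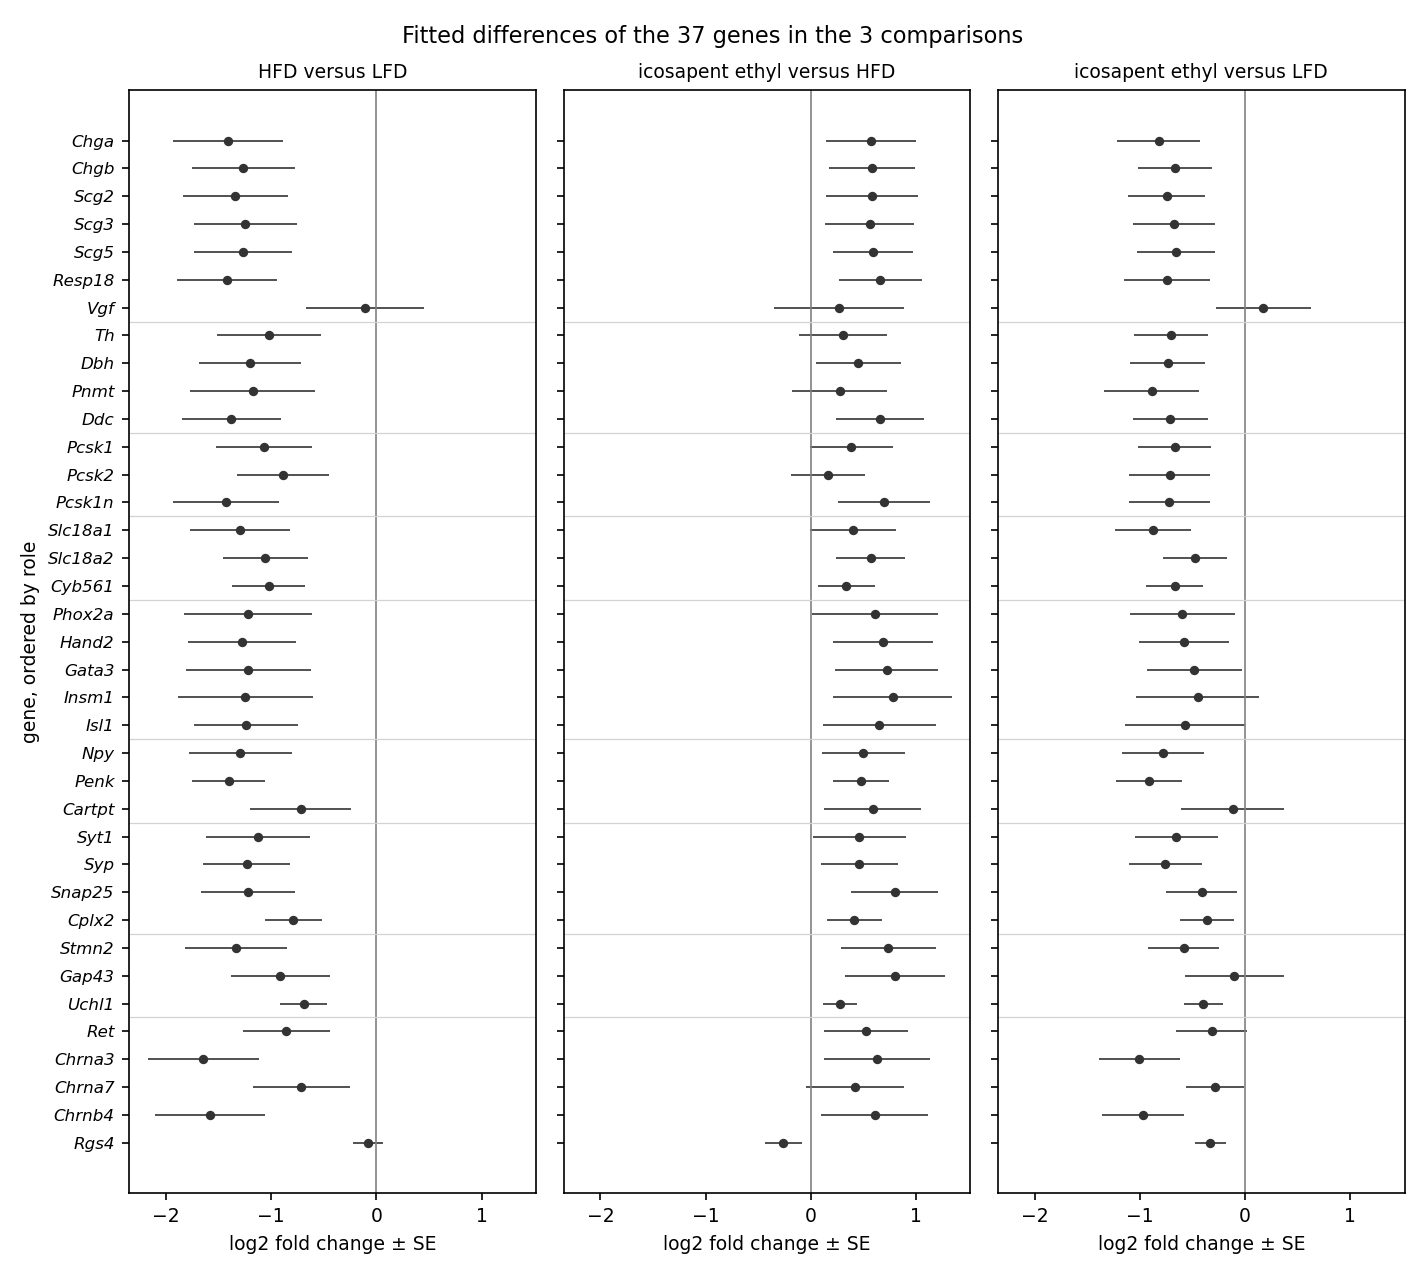
Fitted log2 fold change (edgeR) of each of the 37 genes, ordered by role, in HFD versus LFD, icosapent ethyl-treated versus HFD, and icosapent ethyl-treated versus LFD mice. Points are estimates from 4 against 4 mice and bars are ± 1 SE. The points lie left of 0 for all 37 genes in the left panel, right of 0 for 36 in the middle panel, and left of 0 for 36 in the right panel.

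Markers of other cell types were summed in the same mice. Cortical markers were highest in HFD replicates 3 and 4 (106000 and 102000 CPM) and lowest in LFD replicate 2 (44800 CPM). The 11 markers of glia and sustentacular cells, which wrap chromaffin cells, summed to between 221 and 285 CPM in LFD, 179 and 219 CPM in HFD, and 163 and 239 CPM in icosapent ethyl-treated mice. Of these 11 genes, 9 had a mean above 1 CPM, and the defining glial gene Sox10 was at between 0.701 and 4.87 CPM over the 12 mice. The 7 fibroblast and capsule markers (6 of them above 1 CPM) summed to between 347 and 622 CPM in LFD, 235 and 343 CPM in HFD, and 261 and 361 CPM in icosapent ethyl-treated mice. The 8 macrophage markers summed to between 438 and 640 CPM in LFD, 337 and 403 CPM in HFD, and 353 and 379 CPM in icosapent ethyl-treated mice. The 9 adipocyte markers summed to between 251 and 447 CPM in LFD, 383 and 497 CPM in HFD, and 335 and 493 CPM in icosapent ethyl-treated mice. For the 8 endothelial markers the sums were between 1030 and 1560, 1080 and 1420, and 886 and 1300 CPM in the same order of groups. Of the 5 neuron and nerve ending markers only 2 had a mean above 1 CPM, and Chat, which makes acetylcholine, was at 0.0678 CPM or less. The part of these cell types in the levels of the 37 genes was not tested.

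The granins and granule proteins held most of the signal. Chga (chromogranin A, ENSMUSG00000021194), Chgb (chromogranin B, ENSMUSG00000027350), and Scg2 (secretogranin II) are acidic proteins that pack into dense-core granules, and together they made up between 64.6% and 75.0% of the summed level. Per kilobase of exon, mean levels followed the order Chgb, Chga, Scg2, Npy, Dbh, Pnmt, and Th in each of the 3 groups, from 1873 to 263.5 CPM per kilobase in LFD mice. Chgb and Chga lay close to each other (1873 and 1739 CPM per kilobase in LFD mice), with exon lengths of 2740 and 2756 bases. Within single mice, Chgb was at between 1030 and 1290 CPM per 1000 CPM of Chga. The order of the genes was given no test. Ret, a receptor tyrosine kinase of neural crest development, and Gap43, a growth cone protein, came last in LFD mice with 0.5926 and 0.5743 CPM per kilobase, and Gap43 had between 10 and 62 counts per mouse.

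Chga (chromosome 12 of GRCm38 from 102554969 to 102565028, plus strand) was at 6237, 3754, 7274, and 1908 CPM in LFD, 3043, 885.1, 2419, and 926.7 CPM in HFD, and 2703, 3346, 3181, and 1605 CPM in icosapent ethyl-treated mice. LFD replicate 7 lay within the range of the HFD mice, and the other LFD mice lay above them. The log2 fold change in HFD versus LFD mice was -1.41 (SE 0.52, edgeR adjusted p = 0.148). Chgb (chromosome 2 from 132781278 to 132795079, plus strand) was at 6499, 4320, 7479, and 2234 CPM in LFD, 3526, 1144, 2889, and 1042 CPM in HFD, and 3212, 3671, 3961, and 2062 CPM in icosapent ethyl-treated mice. It ordered the LFD mice as Chga did, with a log2 fold change of -1.27 (SE 0.49, edgeR adjusted p = 0.159) in HFD versus LFD mice. Among the 7 genes of this role, log2 fold changes in HFD versus LFD mice ran from -1.42 for Resp18, a granule protein, to -0.11 for Vgf, the precursor of several secreted peptides.

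All 4 genes of catecholamine synthesis were present. Th (tyrosine hydroxylase, the rate-limiting enzyme, ENSMUSG00000000214, chromosome 7 from 142892752 to 142931128, minus strand) was at 812.2, 520.9, 887.6, and 271.0 CPM in LFD, 392.5, 114.1, 510.8, and 219.6 CPM in HFD, and 359.2, 434.2, 488.2, and 250.4 CPM in icosapent ethyl-treated mice. HFD replicate 3 came close to LFD replicate 5, and HFD replicates 1 and 3 exceeded LFD replicate 7. Ddc (aromatic L-amino acid decarboxylase, which turns L-DOPA into dopamine) was at 128.8, 97.78, 153.0, and 47.7 CPM in LFD, 71.75, 21.71, 50.41, and 21.59 CPM in HFD, and 68.45, 81.15, 75.01, and 36.3 CPM in icosapent ethyl-treated mice. LFD replicate 7 lay within the range of the HFD mice, as it did for Chga. Dbh (dopamine beta-hydroxylase, which makes noradrenaline inside the granule) was at 1209, 786.9, 1335, and 393.7 CPM in LFD, 623.8, 209.0, 589.5, and 207.0 CPM in HFD, and 652.3, 609.1, 626.5, and 343.7 CPM in icosapent ethyl-treated mice. Icosapent ethyl replicate 4 stood well below the other mice of its group.

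Pnmt (phenylethanolamine N-methyltransferase, which makes adrenaline and is induced by glucocorticoids, ENSMUSG00000038216, chromosome 11 from 98386450 to 98388181, plus strand) was at 577.6, 242.8, 512.2, and 117.3 CPM in LFD, 161.2, 54.75, 309.6, and 123.2 CPM in HFD, and 180.6, 232.0, 243.8, and 127.4 CPM in icosapent ethyl-treated mice. Its groups overlapped in each comparison. HFD replicate 3 exceeded LFD replicates 5 and 7, and HFD replicates 1 and 4 exceeded LFD replicate 7. In HFD versus LFD mice the log2 fold changes of the 4 genes were -1.38 for Ddc (SE 0.472), -1.20 for Dbh (SE 0.487), -1.18 for Pnmt (SE 0.593), and -1.02 for Th (SE 0.493), with adjusted p between 0.129 and 0.251 by edgeR's quasi-likelihood test. Under the drug, relative to HFD mice, they lay between 0.27 and 0.66, each with an adjusted p of 1.0 by the same test.

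The amine transporters of the granule were compared with each other in each mouse. Slc18a1 (vesicular monoamine transporter VMAT1, the form typical of chromaffin cells, ENSMUSG00000036330, chromosome 8 from 69037711 to 69089235, minus strand) was at 120.3, 79.18, 126.4, and 39.58 CPM in LFD, 61.06, 17.79, 49.78, and 21.48 CPM in HFD, and 50.2, 60.21, 59.09, and 29.24 CPM in icosapent ethyl-treated mice. Slc18a2 (VMAT2, the form typical of neurons, ENSMUSG00000025094, chromosome 19 from 59260896 to 59296012, plus strand) was at 52.87, 37.71, 51.51, and 18.86 CPM in LFD, 29.95, 11.05, 24.33, and 12.68 CPM in HFD, and 33.64, 30.95, 31.66, and 19.49 CPM in icosapent ethyl-treated mice. In CPM the LFD and HFD groups overlapped for both transporters. Per 1000 CPM of Slc18a1 in the same mouse, Slc18a2 was at 440, 476, 408, and 477 CPM in LFD, 490, 621, 489, and 591 CPM in HFD, and 670, 514, 536, and 666 CPM in icosapent ethyl-treated mice. Every LFD mouse lay below every mouse of the other groups in this ratio, with mean values of 450 ± 33.2 in LFD, 548 ± 68.3 in HFD, and 597 ± 83.3 in icosapent ethyl-treated mice (SD, n = 4 each).

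On the log2 scale the ratio of Slc18a2 to Slc18a1 was 0.28 higher in HFD than in LFD mice and 0.40 higher in icosapent ethyl-treated than in LFD mice. Each of these differences had an exact two-sided permutation p of 0.0286, the smallest that 4 against 4 mice can give, and an adjusted p of 0.257 over the 18 ratio tests. They share the LFD mice, so they are not separate evidence. Icosapent ethyl-treated and HFD mice differed by 0.12, less than their spread (exact permutation p = 0.4, adjusted p = 0.938). The other 5 ratios tested were Pnmt to Th, Pnmt to Dbh, Npy to Chga, Penk to Chga, and Chgb to Chga, and none had an exact permutation p below 0.114 in any comparison. Cyb561, which supplies electrons to the granule for Dbh, had a log2 fold change of -1.02 (SE 0.347, edgeR adjusted p = 0.127) in HFD versus LFD mice.

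Of the neuropeptide precursors, Npy kept close to the other genes, with a CV of 11.9% per 1000 CPM of the other 36, whereas Penk (44.9%) and Cartpt (37.9%) did not. Npy (neuropeptide Y, ENSMUSG00000029819, chromosome 6 from 49822710 to 49829507, plus strand), a vasoconstrictor released with catecholamines, was at 555.8, 297.8, 546.8, and 158.7 CPM in LFD, 220.8, 73.31, 245.6, and 102.8 CPM in HFD, and 209.6, 247.5, 309.1, and 142.1 CPM in icosapent ethyl-treated mice. LFD replicates 2 and 6 were the highest mice, as for Chga, but replicate 3 was the highest HFD mouse in place of replicate 1. Its log2 fold change in HFD versus LFD mice was -1.29 (SE 0.489, edgeR adjusted p = 0.154).

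Penk (preproenkephalin, the precursor of the enkephalins, ENSMUSG00000045573, chromosome 4 from 4133531 to 4138819, minus strand) was at 56.27, 20.4, 25.24, and 31.62 CPM in LFD, 18.79, 10.88, 12.26, and 8.952 CPM in HFD, and 18.07, 24.52, 13.96, and 14.32 CPM in icosapent ethyl-treated mice. All 4 LFD mice lay above all 4 HFD mice, although LFD replicate 5 (20.4 CPM) and HFD replicate 1 (18.79 CPM) were close. LFD replicate 7, the lowest LFD mouse in the other 36 genes, was the second highest in Penk, with 16.6 CPM of Penk per 1000 CPM of Chga against 3.47 to 9.02 in the other LFD mice. The log2 fold change was -1.41 (SE 0.349, edgeR adjusted p = 0.0722) in HFD versus LFD mice. The adjusted p was 0.00189 by DESeq2 and 0.0453 with the 12 mice in 1 edgeR fit. In icosapent ethyl-treated mice it was -0.92 (SE 0.317, edgeR adjusted p = 0.271) relative to LFD and 0.48 (SE 0.266, edgeR adjusted p = 1.0) relative to HFD mice. Cartpt (CART prepropeptide) had between 1.8 and 9.525 CPM, with log2 fold changes of -0.72 and -0.12 in HFD and in icosapent ethyl-treated versus LFD mice.

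The prohormone convertases cut such precursors into peptides. In HFD versus LFD mice, log2 fold changes were -1.07 for Pcsk1 and -0.89 for Pcsk2, the 2 convertases, and -1.43 for Pcsk1n, which encodes the proSAAS inhibitor, with adjusted p between 0.139 and 0.242 by edgeR's quasi-likelihood test. Pcsk1 and Pcsk1n had an unadjusted p below 0.05.

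The 5 transcription factors of the sympathoadrenal lineage (Phox2a, Hand2, Gata3, Insm1, and Isl1) had log2 fold changes between -1.28 and -1.22 in HFD versus LFD mice, and none was called by DESeq2 either. Their summed level was 159 ± 81.5 CPM in LFD, 67.5 ± 48.2 CPM in HFD, and 108 ± 47.2 CPM in icosapent ethyl-treated mice (SD, n = 4 each). The 4 exocytosis genes were Syt1, the calcium sensor of release, Syp, a vesicle membrane protein, Snap25, part of the fusion machinery, and Cplx2, a complexin that binds it. Each of these 4 had an unadjusted p below 0.05 in HFD versus LFD mice, with log2 fold changes between -1.23 and -0.79. Of the genes of neuronal growth and ubiquitin turnover, Stmn2 (-1.33) and Uchl1 (-0.69) had an unadjusted p below 0.05 in the same comparison, and Gap43 (-0.92) did not.

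The nicotinic receptor subunits receive the nerve signal. Chrna3 and Chrnb4, the main subunits of the ganglionic receptor and neighbours on chromosome 9, had the lowest log2 fold changes of the 37 genes in HFD versus LFD mice, -1.65 (SE 0.529) and -1.59 (SE 0.523), with adjusted p of 0.114 and 0.12 by edgeR's quasi-likelihood test. Chrna3 was at 93.11, 68.77, 101.9, and 32.95 CPM in LFD, 46.97, 15.1, 25.08, and 8.409 CPM in HFD, and 43.64, 50.73, 35.45, and 17.99 CPM in icosapent ethyl-treated mice. HFD replicate 1 lay above LFD replicate 7, and the remaining HFD mice lay below each LFD mouse. Chrna7, the subunit of the other main nicotinic receptor, had a log2 fold change of -0.71 (SE 0.462, edgeR adjusted p = 0.367), and Ret one of -0.86 (SE 0.417, edgeR adjusted p = 0.239).

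Rgs4 and Vgf followed the others least. Rgs4, which limits signalling by G proteins, was at 98.86, 83.98, 98.45, and 82.53 CPM in LFD, 109.8, 71.45, 84.01, and 81.0 CPM in HFD, and 61.42, 84.94, 57.88, and 84.9 CPM in icosapent ethyl-treated mice. Its CV over the 12 mice was 17.9%, the lowest of the 37, and its log2 fold change in HFD versus LFD mice was -0.08 (SE 0.141, edgeR adjusted p = 0.763), which turned to 0.0014 in 1 of the 8 fits without a single mouse. Vgf was at 14.55, 11.68, 26.33, and 9.55 CPM in LFD, 10.3, 3.29, 27.32, and 17.18 CPM in HFD, and 10.16, 8.297, 31.27, and 20.14 CPM in icosapent ethyl-treated mice. Replicates 3 and 4 were the highest mice in both the HFD and the treated group. Its log2 fold change was -0.11 (SE 0.562, edgeR adjusted p = 0.926) in HFD versus LFD mice and changed sign without some single mice.

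In HFD and icosapent ethyl-treated mice, replicates 3 and 4 differed from replicates 1 and 2 when some genes were expressed per 1000 CPM of Chga in the same mouse, a measure chosen after the values were seen and given no test. Vgf was at 11.3 and 18.5 in HFD replicates 3 and 4 against 3.38 and 3.72 in replicates 1 and 2, and at 9.83 and 12.5 against 3.76 and 2.48 in the treated mice, whereas the LFD mice lay between 2.33 and 5.01. Th was at 211 and 237 in HFD replicates 3 and 4 against 129 in each of replicates 1 and 2, and at 154 and 156 against 133 and 130 in the treated mice. LFD mice had between 122 and 142. Pnmt was at 128 and 133 in HFD replicates 3 and 4 against 53.0 and 61.9 in replicates 1 and 2, with 76.7 and 79.4 against 66.8 and 69.3 in the treated mice. LFD mice had between 61.5 and 92.6 of Pnmt, a range that holds each of the treated mice.

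Of the 5 lineage transcription factors, Phox2a, Insm1, and Hand2 had the opposite order in both groups, and Gata3 and Isl1 did not. Phox2a, which activates Dbh and Th, was at 4.69 and 4.88 per 1000 CPM of Chga in HFD replicates 3 and 4 against 10.4 and 11.1 in replicates 1 and 2, and at 5.42 and 5.26 against 11.4 and 9.36 in the treated mice. Insm1 was at 2.06 and 3.15 against 4.76 and 5.31 in HFD mice and at 2.45 and 3.08 against 5.39 and 5.77 in the treated mice. Hand2 was at 13.4 and 17.4 against 22.6 and 25 in HFD mice and at 16.6 and 16.1 against 25.1 and 23.3 in the treated mice. The LFD mice had between 5.54 and 8.18 of Phox2a, 2.11 and 5.19 of Insm1, and 14.9 and 19.5 of Hand2. Gata3 was at 4.88 in icosapent ethyl replicate 4 against 4.58 in replicate 1, and Isl1 at 2.29 in HFD replicate 4 against 1.96 in replicate 1. By contrast Ddc lay between 20.7 and 26.0 and Scg2 between 520 and 642 per 1000 CPM of Chga in the 12 mice. HFD replicates 3 and 4 and icosapent ethyl replicates 3 and 4 also had the highest summed cortical markers, between 79300 and 106000 CPM, against 44800 to 75800 CPM in the other mice. The part of the cortical RNA in these ratios was not tested.

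**Figure D4:**
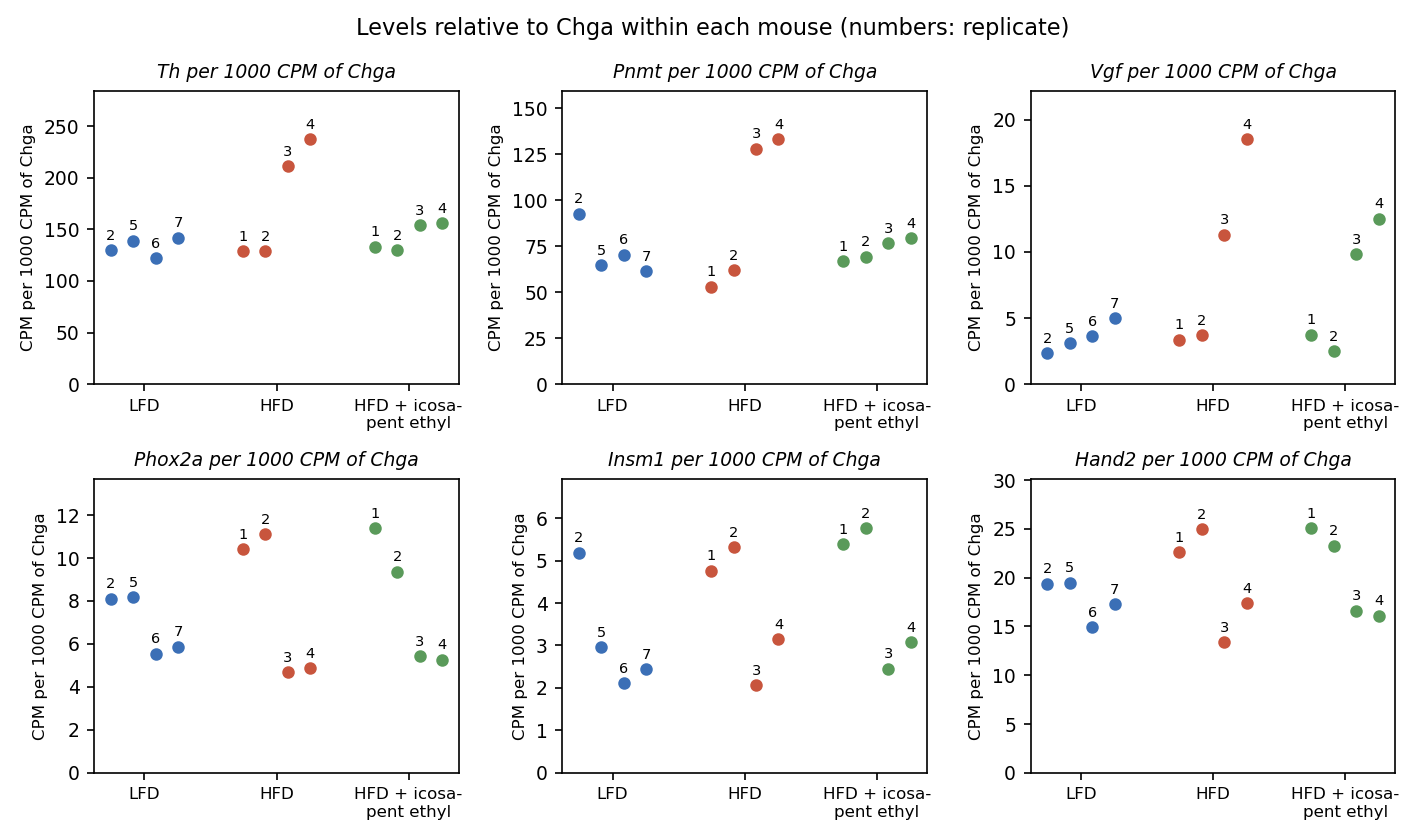
Levels of Th, Pnmt, Vgf, Phox2a, Insm1, and Hand2 per 1000 CPM of Chga in each of the 12 mice, by group, with the replicate number above each point. In HFD and icosapent ethyl-treated mice, replicates 3 and 4 lie above replicates 1 and 2 for Th, Pnmt, and Vgf, as in HFD mice with Th at 211 and 237 against 129, and below them for Phox2a, Insm1, and Hand2.

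The letters before the start sites were searched as well. RefSeq windows of 300 bases (250 before and 50 after the start, GRCm38.p6) were at hand for 27 of the 37 genes, with 29 windows, and were searched on both strands. The palindrome of the cAMP response element, TGACGTCA, was found in 6 of these genes (Cartpt, Chgb, Pcsk1, Scg2, Slc18a2, and Th), whereas 1.79% of all 32851 windows hold it. With 1 base free (TGACGTNA, which includes the palindrome), Chga was added, against 2.93% of all windows. These 7 stretches are shown because they hold a match to TGACGTNA. Each reads from 5′ to 3′ on the strand of the gene, with the matched letters in capitals.
Th (chr7:142900021-142900100, minus strand): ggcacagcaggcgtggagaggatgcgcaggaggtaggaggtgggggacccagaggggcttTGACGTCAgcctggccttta
Slc18a2 (chr19:59260814-59260883, plus strand): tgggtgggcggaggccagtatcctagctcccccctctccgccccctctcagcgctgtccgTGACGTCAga
Chga (chr12:102554837-102554916, plus strand): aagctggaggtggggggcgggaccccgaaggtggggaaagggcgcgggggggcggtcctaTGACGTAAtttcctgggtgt
Chgb (chr2:132781510-132781589, plus strand): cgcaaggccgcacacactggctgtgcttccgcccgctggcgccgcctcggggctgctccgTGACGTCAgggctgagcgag
Scg2 (chr1:79440075-79440154, minus strand): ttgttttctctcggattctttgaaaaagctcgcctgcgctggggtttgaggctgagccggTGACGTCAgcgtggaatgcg
Pcsk1 (chr13:75089719-75089798, plus strand): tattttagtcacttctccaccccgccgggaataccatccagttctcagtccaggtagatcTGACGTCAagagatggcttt
Cartpt (chr13:99900776-99900855, minus strand): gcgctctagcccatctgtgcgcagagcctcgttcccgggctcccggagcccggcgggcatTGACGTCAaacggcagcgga
The match begins 45 bases before the start site in Th, 44 in Chga, 72 in Chgb, 68 in Scg2, 78 in Pcsk1, 112 in Cartpt, and 4 in Slc18a2. Of the other motifs searched, TGANTCA (AP-1) was found in Ddc, Pcsk1n, and Th (7.81% of all windows) and GCGGGGGCG (EGR) in Chgb, Chrna7, Hand2, and Pcsk2 (2.91% of all windows). A match describes letters in a window and does not show that a factor binds there.

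A second list held 52 other genes of chromaffin and neurosecretory function (channels, synaptic and granule proteins, neuronal RNA-binding proteins, amine-degrading enzymes), 51 of which were tested. In HFD versus LFD mice 44 of them had a lower and 7 a higher fitted level, with a median log2 fold change of -0.96. EdgeR called 0 of these, 28 were lower and 2 higher at an unadjusted p below 0.05 (12.5% and 12.4% of all genes), and DESeq2 called 16 lower (6.33% of all genes). In icosapent ethyl-treated versus HFD mice 43 were higher and 8 lower, with a median of 0.41, 0 called by edgeR or DESeq2, and 1 higher at an unadjusted p below 0.05 (0.672% of all genes). Against LFD mice, 43 were lower in icosapent ethyl-treated mice and 8 higher, with a median of -0.49, 0 called by either tool, and 5 lower and 1 higher at an unadjusted p below 0.05 (6.67% and 7.29% of all genes).

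Among the 52, Ina, a neuronal intermediate filament protein, was at 26.7, 31.8, 39.4, and 37.2 CPM in LFD and 22.5, 16.9, 22.9, and 23.5 CPM in HFD mice without overlap (log2 fold change -0.66, SE 0.15, edgeR adjusted p = 0.0598). Tubb3, the neuronal beta-tubulin, was at 39.1, 29.5, 32.0, and 36.1 CPM in LFD and 23.6, 22.8, 13.6, and 10.6 CPM in HFD mice, again without overlap (-0.96, SE 0.256, edgeR adjusted p = 0.081). In both of these genes LFD replicate 7 was among the higher LFD mice, unlike in the granins. Elavl3, a neuronal RNA-binding protein, had a log2 fold change of -1.82 (SE 0.531, edgeR adjusted p = 0.0945) in HFD versus LFD and 1.07 (SE 0.465, edgeR adjusted p = 1.0) in icosapent ethyl-treated versus HFD mice. Sv2c, a synaptic vesicle protein, had 1.06 (SE 0.421, edgeR adjusted p = 0.169) and Kcnma1, a calcium-activated potassium channel, 0.39 (SE 0.142, edgeR adjusted p = 0.144) in HFD versus LFD mice by the same test. Cpe, the carboxypeptidase that trims peptide hormones, was lower in icosapent ethyl-treated than in LFD mice without overlap (-0.34, SE 0.102, edgeR adjusted p = 0.25).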

How the data were processed

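RNA of the adrenal cortex of 12 mice was analysed, 1 library each. Per the labels and the paper's methods, the authors trimmed reads with cutadapt, aligned them to GRCm38 with STAR, and counted them per GENCODE gene with HTSeq 0.6.1p1 on the reverse strand. They deposited raw read counts per gene. Depth was between 34785979 and 67295963 counts per mouse. Coordinates and exon lengths came from GENCODE M21, and symbols came from a separate list of gene names.

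Differences were fitted over all genes with edgeR 4.0.16 (R 4.3.3; TMM scaling, genes kept by filterByExpr with a minimum count of 10, quasi-likelihood test with robust dispersions, threshold 0.05 after Benjamini-Hochberg adjustment) on the 8 mice of the 2 groups compared, without covariates. Levels are CPM on 1 TMM scale over 12 mice. Log2 ratios of pairs of genes within a mouse were compared by exact permutation tests over the 70 divisions of 4 against 4 mice. Alternatives were DESeq2 1.42.0, its size factors, library totals, other count filters, the 12 mice in 1 fit, 1 count added to each gene in the ratios, and leaving out each mouse. The edgeR procedure was tested on simulated counts that were drawn for each gene separately. That test does not cover genes that are high or low together in the same mice.

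All 37 genes are accounted for. Values per mouse are given for the catecholamine enzymes, Chga, Chgb, Npy, Penk, Slc18a1, Slc18a2, and any gene past the threshold or without overlap, and other genes shown per mouse were chosen after their values were seen. From the other list at most 3 genes per direction and comparison with the lowest p were eligible. The genes and lists were chosen with earlier results of these data known.

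The HFD and icosapent ethyl-treated mice share the numbers 1 to 4. After subtracting group means, the mice of 1 number had correlations of 0.339, 0.162, 0.405, and 0.795, each above 0.1, so the number was used as a replicate block in that comparison. Some mice of unlike number, however, correlated as well. The values were 0.705 for HFD replicate 1 and treated replicate 2, 0.616 for HFD replicate 2 and treated replicate 1, and 0.491 for HFD replicate 3 and treated replicate 4. The remaining pairs of unlike number had negative correlations. The source of such pairing is not given in the labels. LFD mice share only the number 2 with the others and were not paired. Each library is 1 mouse by its label, and p-values measure the spread between these mice.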

Additional observations from a re-analysis of the deposited data

Results flagged for a closer look

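Groups of 4 mice were searched for a mouse far from the others, in 132 groups of levels and ratios, and 2 were found; chance alone gives about 1 in 20. In the icosapent ethyl-treated mice, Dbh was at 343.7 CPM in replicate 4, and the other mice had between 609.1 and 652.3 CPM. In the same group, Pnmt stood at 276.9 per 1000 CPM of Dbh in replicate 1, and the other mice had between 370.7 and 389.2.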

How the results depend on the processing

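The 37 genes kept a lower median in HFD versus LFD mice, a higher one in icosapent ethyl-treated versus HFD mice, and a lower one in icosapent ethyl-treated versus LFD mice under each alternative run. With 4 mice per group and CVs above 50% in most of the genes, single mice moved the medians by more than any count setting did. In HFD versus LFD mice, the number of all genes past the threshold was 556 with the 12 mice in 1 fit (316 higher, 240 lower), 2019 with DESeq2 (1012 higher, 1007 lower), and 84 with library totals (40 higher, 44 lower), against 230 (155 higher, 75 lower), and 0 to 918 without a single mouse. Library totals moved the median log2 fold change of all genes from -0.01 to -0.11 and that of the 37 genes from -1.22 to -1.33. Of the 37 genes, 1 was called with the 12 mice in 1 fit and 18 with DESeq2, and 0 to 4 without a single mouse. In icosapent ethyl-treated versus HFD mice, DESeq2 called 6 of all genes, and the replicate block called 0 of all genes and 0 of the 37. In icosapent ethyl-treated versus LFD mice, the number for all genes was 2 with the 12 mice in 1 fit and 471 with DESeq2, and 0 to 1 without a single mouse. The cause of these differences was not tested.

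Without Chgb, the most abundant gene per length, the summed level was 7323.5, 8581.2, and 8441.3 CPM in icosapent ethyl replicates 1, 2, and 3. Leaving out a gene lowers the sum by that gene's own level. The highest of the 12 mice then held 6.85 times the summed level of the lowest, against 6.76 times with Chgb. Without an LFD mouse, the Slc18a2 to Slc18a1 difference lay between 0.23 and 0.31 in HFD and between 0.35 and 0.43 in icosapent ethyl-treated versus LFD mice, with exact permutation p of 0.0571 or more. Over all mice left out in turn it lay between 0.21 and 0.33 and between 0.34 and 0.47.

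Log2 differences that changed sign when a mouse was left out had the following ranges. In HFD versus LFD mice they were -0.22 to 0.0014 for Rgs4 and -0.60 to 0.27 for Vgf. In icosapent ethyl-treated versus HFD mice they were -0.0243 to 0.39 for Pcsk2, -0.0146 to 0.79 for Pnmt, and -0.17 to 0.77 for Vgf. In icosapent ethyl-treated versus LFD mice they were -0.50 to 0.14 for Cartpt, -0.36 to 0.17 for Gap43, -0.81 to 0.16 for Insm1, and -0.26 to 0.55 for Vgf. For the ratio of Pnmt to Th they were -0.18 to 0.0594, -0.0963 to 0.0908, and -0.17 to 0.066 in HFD versus LFD, icosapent ethyl-treated versus HFD, and icosapent ethyl-treated versus LFD mice, and for Pnmt to Dbh -0.13 to 0.27, -0.31 to 0.10, and -0.13 to 0.10. For Penk to Chga they were -0.26 to 0.49 in HFD versus LFD and -0.50 to 0.26 in icosapent ethyl-treated versus LFD mice. For Npy to Chga they were -0.0312 to 0.10 in icosapent ethyl-treated versus LFD mice, and for Chgb to Chga -0.0191 to 0.0571 in icosapent ethyl-treated versus HFD mice. None of these differences passed a test.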
